A study of Mus musculus with 12 samples.

Results

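A set of 7 genes was read in bone marrow RNA libraries labelled Tet2+/- and was near 0 in libraries without that label, except Rps2-ps10, which was low there at 8 to 31 counts. These marker genes were Pcna-ps2, Atp6v0c-ps2, Gm9825, Gm14292, Eif3j2, Rps2-ps10 and Gbp2b, and they are described here beside 3 parent genes, Pcna, Atp6v0c and Eif3j1, which makes 10 members out of 31060 genes in the count table. The 7 markers were selected on their counts, near 0 or low in WT and Ins2Akita/+ libraries and present in every Tet2+/- labelled library, so their difference between these 2 sides is a description and carries no test. All 10 members passed the filter on low counts, as did 15630 genes in all, and the 7 markers passed it through the libraries in which they are high. The libraries came from lineage-negative bone marrow cells of C57BL/6 mice, the fraction left after cells with mature lineage markers are removed, and total RNA was sequenced. The groups were Tet2+/- (n = 3), which carries 1 disrupted Tet2 allele, Tet2+/-;Ins2Akita/+ (n = 3), called the double mutant below, WT (n = 3), and Ins2Akita/+ (n = 2), which carries the Akita mutation of the insulin gene Ins2, a mouse model of diabetes with high blood glucose. The labels give no age or sex and do not say whether samples of a group came from separate mice, so a p-value covers only the spread of these samples, which may be technical. In bulk RNA, fewer cells of a type and less RNA per cell cannot be told apart.

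A processed pseudogene is a copy of a messenger RNA that was written back into the genome, as a rule without the introns of its parent gene and away from it. The 5 pseudogenes here are copies of genes that nearly all cells use: Pcna encodes the sliding clamp of DNA replication, Atp6v0c a membrane subunit of the proton pump V-ATPase, and Rps2 a protein of the small ribosomal subunit. The copy and the parent share most of their letters, so the letters of a read tell the copy from the spliced parent transcript only where the letters differ. Eif3j2 is annotated as protein coding and resembles Eif3j1, which encodes a subunit of the translation initiation factor eIF3. Gbp2b encodes a guanylate binding protein, a family of GTPases that interferon gamma induces and that act against intracellular pathogens.

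The letters by which a copy can be told from its parent are shown for 4 pairs, as 100 bases of the GENCODE M21 transcripts on genome build GRCm38, written 5′ to 3′ on the gene's strand, with the differing bases in capitals. The parents of Gm9825 and Gm14292 were found by sequence: Rnps1, which encodes an RNA-binding protein of the exon junction complex, and Wtap, which encodes a subunit of the complex that methylates adenosine in messenger RNA. The Pcna-ps2 stretch lies on chromosome 19 (9283930 to 9284029, plus strand), that of Atp6v0c-ps2 on chromosome 6 (37806146 to 37806245, plus strand), that of Gm9825 on chromosome 6 (7983120 to 7983219, minus strand) and that of Gm14292 on chromosome 2 (179177673 to 179177772, plus strand). In the transcripts of Pcna, Atp6v0c and Wtap 1 exon junction falls inside the stretch, and in that of Rnps1 none does.
Pcna-ps2: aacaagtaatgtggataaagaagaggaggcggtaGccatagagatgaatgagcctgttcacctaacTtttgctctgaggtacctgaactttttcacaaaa
Pcna: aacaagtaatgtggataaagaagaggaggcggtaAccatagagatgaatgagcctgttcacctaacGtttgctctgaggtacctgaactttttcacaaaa
Atp6v0c-ps2: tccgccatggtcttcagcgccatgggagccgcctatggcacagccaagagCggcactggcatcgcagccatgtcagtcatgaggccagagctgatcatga
Atp6v0c: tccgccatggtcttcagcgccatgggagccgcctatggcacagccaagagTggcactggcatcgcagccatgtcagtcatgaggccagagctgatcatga
Gm9825: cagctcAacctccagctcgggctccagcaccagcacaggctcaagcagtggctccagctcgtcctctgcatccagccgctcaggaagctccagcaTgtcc
Rnps1: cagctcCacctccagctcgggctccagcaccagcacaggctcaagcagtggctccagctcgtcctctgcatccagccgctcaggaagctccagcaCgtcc
Gm14292: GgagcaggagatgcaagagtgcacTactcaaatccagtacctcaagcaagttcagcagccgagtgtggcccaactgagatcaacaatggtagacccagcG
Wtap: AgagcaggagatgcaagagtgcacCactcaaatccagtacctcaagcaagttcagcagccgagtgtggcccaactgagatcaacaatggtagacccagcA

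All 6 copies matched their parent over their whole length, at 99.23% to 99.78% identity, and each ran through parent exon junctions without an intron. Pcna-ps2 differed from the Pcna transcript at 6 of 781 bases and crossed 5 junctions. Atp6v0c-ps2 had the fewest differences, a single one in 465 bases, T111C counted from the first base of the copy with the parent base first, and its longest stretch identical to Atp6v0c was 354 bases. Gm9825 differed from Rnps1 at 5 of 843 bases and Gm14292 from Wtap at 3 of 456 bases.

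Eif3j2 differed from Eif3j1 by 4 substitutions and 10 gap bases over 2379 bases, with an identical stretch of 1083 bases, and it crossed 7 junctions of Eif3j1 although it is annotated as protein coding. Rps2-ps10 differed from Rps2 at 5 of 879 bases. In the 5 copies whose differences fell in the coding part of the parent, 17 of 20 substitutions were synonymous in the parent's reading frame. The exceptions were G423A and A585G in Pcna-ps2 and C260T in Gm9825. How the authors' counting treated reads that fit both a copy and its parent is not given in the sources used here, so counts of a copy and its parent are uncertain by whatever reads were placed on the wrong one.

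The libraries held 14814409 to 22600405 counts each. The libraries numbered 3 stood apart from the others in several ways, but not all in the same direction. Summed over 11 erythroid genes, the level was 8544 CPM (counts scaled to a common library total, with TMM factors) in Tet2+/- library 3 and 2736 CPM in double mutant library 3, against 652 to 2373 CPM in the Tet2+/- labelled libraries numbered 1 and 2. Without the label it was 5175 CPM in WT library 3 and 1061 to 2807 CPM in the other libraries. The share of mitochondrial counts was 4.46% in Tet2+/- library 3 and 9.76% in double mutant library 3, and 1.36% to 1.66% in the 4 others with the Tet2+/- label. The sum over 10 neutrophil genes was 3182 CPM in Tet2+/- library 3 and 3333 CPM in WT library 3, against 23759 to 78884 CPM in the other 9 libraries. Double mutant library 3 was among these 9, at 63394 CPM. B lineage genes summed to 47.9 to 297 CPM and T and NK cell genes to 81.2 to 302 CPM over all libraries, in a preparation labelled lineage-negative. Stem and progenitor genes such as Kit and Cd34 summed to 297 to 718 CPM over 8 genes, lowest in Tet2+/- library 3 and highest in double mutant library 3.

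Pcna-ps2 carries the identifier ENSMUSG00000067608.4 and spans 9283380 to 9284160 of chromosome 19. Its counts were 558, 546 and 1945 in Tet2+/- libraries 1, 2 and 3 and 502, 531 and 819 in double mutant libraries 1, 2 and 3, against 7, 5 and 6 counts in WT and 6 and 6 counts in Ins2Akita/+. The 5 libraries without the Tet2+/- label were nearly equal, and the lowest of the 6 labelled ones lay far above all of them. The mean level was 42.7 CPM in the 6 labelled libraries and 0.323 CPM in the other 5, a ratio of 132.

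Atp6v0c-ps2 carries the identifier ENSMUSG00000080242.5 and spans 37806086 to 37806550 of chromosome 6. Its counts were 574, 829 and 610 in Tet2+/- and 549, 752 and 655 counts in the double mutant, against 2, 2 and 1 counts in WT and 2 and 11 counts in Ins2Akita/+. It was the steadiest of the 7 markers: its highest level was 1.81 times its lowest among the 6 labelled libraries. The ratio of the mean levels, 35.4 CPM in the 6 labelled libraries to 0.182 CPM in the other 5, was 194.

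Gm9825 (ENSMUSG00000096403.2; chromosome 6, 7982541 to 7983383), the copy of Rnps1, had 245, 447 and 909 counts in Tet2+/- and 250, 227 and 390 counts in the double mutant. Over the other 5 libraries it had 1 count in all, in WT library 2. Gm14292 (ENSMUSG00000061897.5; chromosome 2, 179177425 to 179177880), the copy of Wtap, had 56, 83 and 96 counts in Tet2+/- and 38, 49 and 57 counts in the double mutant, against 0 counts in all 3 WT libraries and 0 and 2 counts in Ins2Akita/+. Both sides were far apart for each of these copies, at a lower depth for Gm14292.

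Eif3j2 (ENSMUSG00000043424.10; chromosome 18, 43475418 to 43477796) had 207, 207 and 544 counts in Tet2+/- and 184, 24 and 251 counts in the double mutant, against 5, 1 and 2 counts in WT and 3 and 1 counts in Ins2Akita/+. Double mutant library 2 was low, with 24 counts, yet above all 5 libraries without the label. Rps2-ps10 (ENSMUSG00000091957.3; chromosome 18, 61259008 to 61259972) had 216, 399 and 962 counts in Tet2+/- and 249, 179 and 558 counts in the double mutant, against 31, 19 and 31 counts in WT and 14 and 8 counts in Ins2Akita/+. Of the 7 markers it had the highest mean level in the unlabelled libraries, 1.12 CPM, and it had the smallest ratio of mean levels among those computed, 20.4, while that of Eif3j2 was 95.5.

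Gbp2b (ENSMUSG00000040264.10; chromosome 3, 142594847 to 142619179), the one marker that is no copy of a messenger RNA, had 183, 185 and 39 counts in Tet2+/- and 84, 8 and 71 counts in the double mutant, and 0 counts in each WT and Ins2Akita/+ library. A count of 0 allows a level of up to 0.151 to 0.203 CPM in a single one of these 5 libraries, and 0.0332 CPM over the 5 together, taken as 3 counts of the total and covering counting error only. Gbp2b varied most among the 6 labelled libraries, with a highest level of 10.98 CPM in Tet2+/- library 2, which was 27.6 times the lowest, 0.398 CPM in double mutant library 2. That library also had the lowest level of Eif3j2, whose highest was 22.0 times its lowest.

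**Figure D1:**
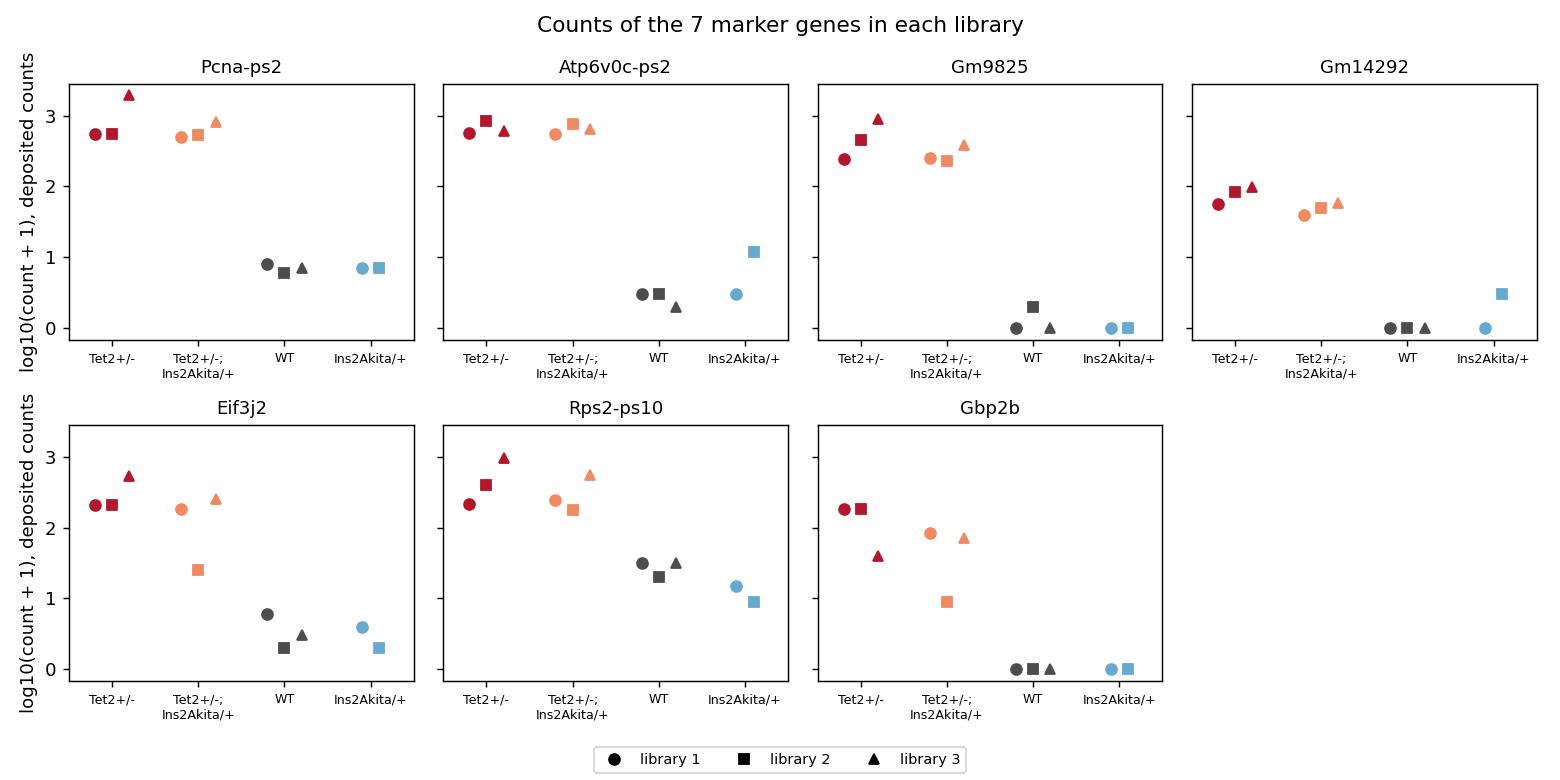
Deposited counts of the 7 marker genes in each of 11 libraries, as log10(count + 1), by group, with 1 point per library and its shape giving the library number. Every point of the 2 Tet2+/- labelled groups lies above every point of WT and Ins2Akita/+ for each gene, and double mutant library 2 is low for Eif3j2 and Gbp2b.

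The markers stood at the top when all genes were ranked by how far the 2 sides lay apart. The gap of a gene was taken as the log2 of its lowest level on one side over its highest on the other, each plus 0.2 CPM, for genes with at least 10 counts in every library of the higher side. A gap of at least 2, which is 4-fold, was found for 5 of 12603 genes higher in the Tet2+/- labelled libraries (0.0397%), and all 5 were members: Gm9825 with a gap of 5.52, Pcna-ps2 with 5.49, Atp6v0c-ps2 with 5.23, Gm14292 with 2.83 and Rps2-ps10 with 2.13. In the reverse direction no gene of 12871 had such a gap. Eif3j2 followed with 1.62, and Gbp2b, left out by its 8 counts in double mutant library 2, would have had 1.58.

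The nearest gene outside the set was Igkv4-62, an immunoglobulin kappa variable segment, with a gap of 0.70, and then Gm3839 with 0.61 and Exd1 with 0.52. In the reverse direction Unc5a led with 0.74, followed by Gm28042 with 0.56 and Upk1b with 0.49. Without Tet2+/- library 2, 10 genes had a gap of at least 2, against 5 with it, and without all libraries numbered 3 there were 9. These comparisons use the contrast by which the members were chosen, so they only place the members among all genes.

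**Figure D2:**
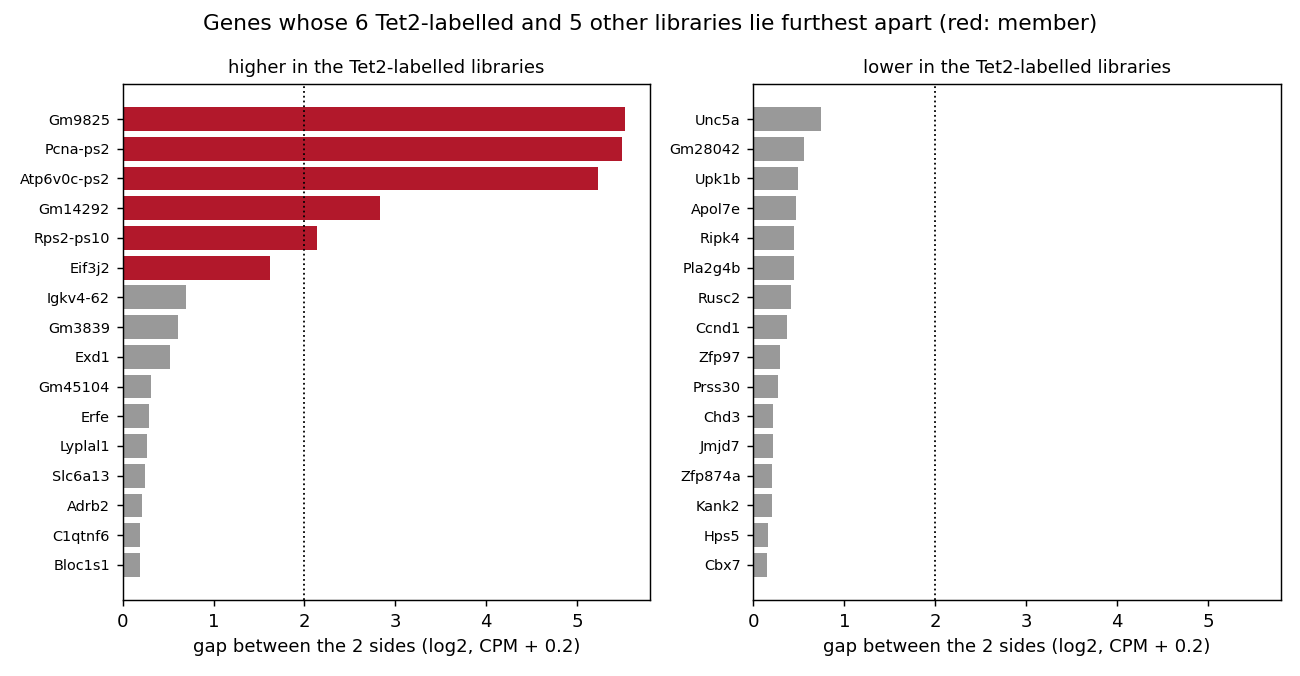
Genes with the largest gap between the 6 Tet2+/- labelled libraries and the other 5, in log2 of CPM plus 0.2, for genes higher (left) and lower (right) in the labelled libraries; red bars are members and the dotted line marks a gap of 2. The 6 members on the left run between 1.62 and 5.52, and the next gene, Igkv4-62, is at 0.70.

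In edgeR's quasi-likelihood test with Benjamini-Hochberg adjustment, 4 of 15630 genes were called for the Tet2+/- label averaged over both Ins2 backgrounds (0.0256%), and all 4 were members: Gm9825, Gm14292, Atp6v0c-ps2 and Pcna-ps2. The same 4 were the genes called in Tet2+/- against WT (0.0256%). In the double mutant against Ins2Akita/+, 6 genes were called (0.0384%), of which 3 were the members Pcna-ps2, Atp6v0c-ps2 and Gm9825, and the others, all lower in the double mutant, were Chst3, Akap12 and Fam129c. With the library number, whose meaning the labels do not give, as a block, 9, 8 and 18 genes were called in these 3 comparisons, among them 6, 6 and 4 markers. These counts repeat the contrast that chose the markers, and nothing is read from them.

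A weaker form of the pattern was looked for in genes of low counts: at most 2 counts in sum over the 5 unlabelled libraries, at least 1 count in each of the 6 labelled ones and a mean of at least 2.5 counts there. This held for 16 of the 16654 genes that met both conditions on the labelled libraries (0.0961%), and the mirror image held for 3 of 16712 (0.018%), namely 4930403P22Rik, Uox and Gm11690. Of the 16 genes, 3 were the members Gm9825, Gm14292 and Gbp2b, and 9 were pseudogenes, Gm9825 and Gm14292 among them. Pseudogenes make up 13.7% of all 31060 genes in the table, and their share among the 16654 was not computed. The count rests on the limits chosen after the values were seen: it was 5 with no count allowed in the unlabelled libraries and 77 with up to 5 allowed, against 0 and 17 in the mirror image. The count of 16 was 29 and 26 without Tet2+/- library 2 or 3, and 25 to 37 without any one of the 5 unlabelled libraries. The mirror count of 3 was 4 to 7 without 1 library and 0 with a mean of at least 5 counts.

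Among these genes Rpl34-ps2, a copy of the ribosomal protein gene Rpl34, had 44, 53 and 35 counts in Tet2+/- and 29, 5 and 1 counts in the double mutant, against 0 counts in WT and 1 and 0 counts in Ins2Akita/+. Gm6257, a copy of Dnajc17 at 97.04% identity, had 5, 7 and 23 counts in Tet2+/- and 10, 1 and 17 counts in the double mutant, and 0 counts in the other 5 libraries. Gm3650, which matches Spg11 with 1 difference in 747 bases, had 9, 5 and 23 counts in Tet2+/- and 3, 2 and 13 counts in the double mutant, and also 0 counts in the other 5.

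Of the genes beside the markers, Gm3650 and Gm27325 at Eif3j2 shared the pattern, and the others did not or had too few counts to show it. Gm3650 lies 249 bases from Eif3j2. The microRNA gene Gm27325, which lies inside Eif3j2, had 1 to 24 counts in the 6 labelled libraries and 0 in the other 5. All 74 bases of Gm27325 are part of the Eif3j2 transcript on the same strand, so it may not be a separate case. The parents of Eif3j2 and Gm3650 overlap each other: Eif3j1 spans 122028546 to 122056598 and Spg11 spans 122053520 to 122118386 on chromosome 2. Slc26a2 and Ppargc1b, on either side of Rps2-ps10, had 163 to 415 and 62 to 145 counts in the labelled libraries, against 275 to 463 and 58 to 117 counts in the others. C1galt1, the nearest gene before Gm9825, had 938 to 3098 counts in the labelled libraries and 846 to 1953 counts in the others. Both sides overlapped for each of these 3 neighbours in CPM. The genes nearest to Pcna-ps2, Atp6v0c-ps2 and Gm14292 had at most 8 counts in any library and lay up to 690059 bases away, so they cannot show whether the pattern extends beyond these markers.

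Other copies close to the members had few counts in every library. Rps2-ps13, which differs from Rps2-ps10 by 2 of 879 bases, had 0 to 2 counts in the 11 libraries. Atp6v0c-ps1, at 97.41% identity to Atp6v0c-ps2, had 0 to 3 counts in the labelled libraries and 2 to 5 counts in the others. Of 44 copies with counts that resemble Rps2-ps10, Rps2-ps13 among them, none exceeded 70 counts in a library.

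The parents lay together in a few places. Of the 6 parents, 4 were on chromosome 17 and 2 on chromosome 2, where 5.12% and 7.92% of the protein-coding genes tested lie. Atp6v0c, Rnps1 and Rps2 fell within 0.558 Mb (24163866 to 24721929), Wtap lay 11.8 Mb from the far end of Rps2, and Eif3j1 and Pcna were within 10.2 Mb on chromosome 2. Dnajc17, the parent of Gm6257, was on chromosome 2 as well, within 13.1 Mb of the far end of Pcna. On chromosome 3, Gbp2b itself lay 9.05 Mb from Tet2 and Rpl34, the parent of Rpl34-ps2, 2.73 Mb from Tet2 on the other side. Other low-count copies had parents elsewhere: Tsen15, the parent of Gm5874, was on chromosome 1, Chmp2a, the parent of Gm8185, on chromosome 7, and BC100530, the closest match of BC117090, on chromosome 16.

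In some of these intervals genes other than the copies did not overlap between the 2 sides. In the stretch from Atp6v0c to Rps2, which holds 3 of the parents, this held for 0 of 27 genes tested. Between Dnajc17 and Pcna it held for 7 of 181 genes tested (3.87%), namely Jmjd7, Pced1a, Pla2g4b, Prn, Eif3j1, Exd1 and Gm28042, and between Wtap and Rps2 for 4 of 95 (4.21%), Prss30, Prss41, Zfp97 and Zfp960. In the narrower stretch from Eif3j1 to Pcna it held for 3 of 122 (2.46%), Pced1a, Prn and Eif3j1. Of the 7, Gm28042 (120027493 to 120043033) overlaps both Jmjd7 and Pla2g4b, so these may not be separate cases, and Eif3j1 is a member. Over all genes tested 121 of 15630 did not overlap (0.774%). Within 10 Mb of Tet2 it held for 2 of 84 genes (2.38%), Ugt8a and Gbp2b, and Gbp2b is a marker chosen for this pattern. It held for 0 of 52 within 5 Mb, 3 of 173 within 20 Mb (1.73%) and 3 of 804 on chromosome 3 (0.373%). The intervals were set after the positions of the parents were seen, edgeR called none of the genes named here for the averaged label, and no reason for the positions was tested.

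Next the reads were divided between copy and parent, since this share does not depend on how a library is scaled. Pcna-ps2 made up 8.59%, 9.31% and 16.6% of the counts of Pcna-ps2 plus Pcna in Tet2+/- and 8.20%, 8.92% and 17.1% in the double mutant, against 0.0826% to 0.107% in WT and 0.0917% and 0.12% in Ins2Akita/+. Eif3j2 reached the largest share, 16.6%, 20.7% and 36.6% of Eif3j2 plus Eif3j1 in Tet2+/- and 17.7%, 2.08% and 35.8% in the double mutant, and at most 0.39% in the other 5 libraries. Atp6v0c-ps2 made up 7.70%, 12.6% and 15.8% of its pair in Tet2+/- and 6.25%, 7.31% and 14.4% in the double mutant. For Gm9825 with Rnps1 the shares were 8.26%, 14.3% and 17.6% in Tet2+/- and 8.96%, 8.45% and 16.5% in the double mutant.

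Gm14292 made up 1.82%, 2.75% and 4.20% of its pair with Wtap in Tet2+/- and 1.33%, 1.60% and 3.43% in the double mutant. Rps2-ps10 made up 1.53%, 3.33% and 4.76% of its pair with Rps2 in Tet2+/- and 1.85%, 1.49% and 4.90% in the double mutant.

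For all 6 pairs both labelled libraries numbered 3 had a larger share of the copy than each of the 4 labelled libraries numbered 1 and 2. In Tet2+/- the share in library 3 was 1.55 to 1.96 times the mean of libraries 1 and 2, and in the double mutant it was 1.89 to 3.62 times. The erythroid and mitochondrial values given above moved with the library number in the same direction, and their part in the shares was not tested. For Atp6v0c the parent itself was low in the libraries numbered 3, at 157 CPM in Tet2+/- and 246 CPM in the double mutant, against 326 to 474 CPM in the labelled libraries numbered 1 and 2, while Atp6v0c-ps2 in Tet2+/- library 3 was at 29.5 CPM, between the 27.2 and 49.2 CPM of libraries 1 and 2. In the double mutant Atp6v0c-ps2 was at 41.5 CPM in library 3, above the 27.5 and 37.4 CPM of libraries 1 and 2.

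The share did not differ detectably between the double mutant and Tet2+/-. For Pcna-ps2 it averaged 11.4% ± 4.94 in the double mutant and 11.5% ± 4.41 in Tet2+/- (SD, n = 3 each; two-sided exact permutation p = 1). For Eif3j2 it averaged 18.5% ± 16.9 in the double mutant and 24.6% ± 10.6 in Tet2+/- (SD, n = 3 each; exact p = 0.7), a difference of -6.12 percentage points that was 2.11 without double mutant library 2. For the other 4 pairs the difference of double mutant minus Tet2+/- ran between -2.71 and -0.459 percentage points, with exact p between 0.5 and 0.9. All 6 adjusted p-values were 1, and with 3 libraries against 3 the exact test cannot give a p below 0.1. Paired by library number, the share was lower in the double mutant in 3 of 3 pairs for Atp6v0c-ps2 and for Gm14292 (two-sided exact paired permutation p = 0.25 for each, the smallest that 3 pairs allow), and in 1 or 2 of 3 pairs for the other copies.

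**Figure D3:**
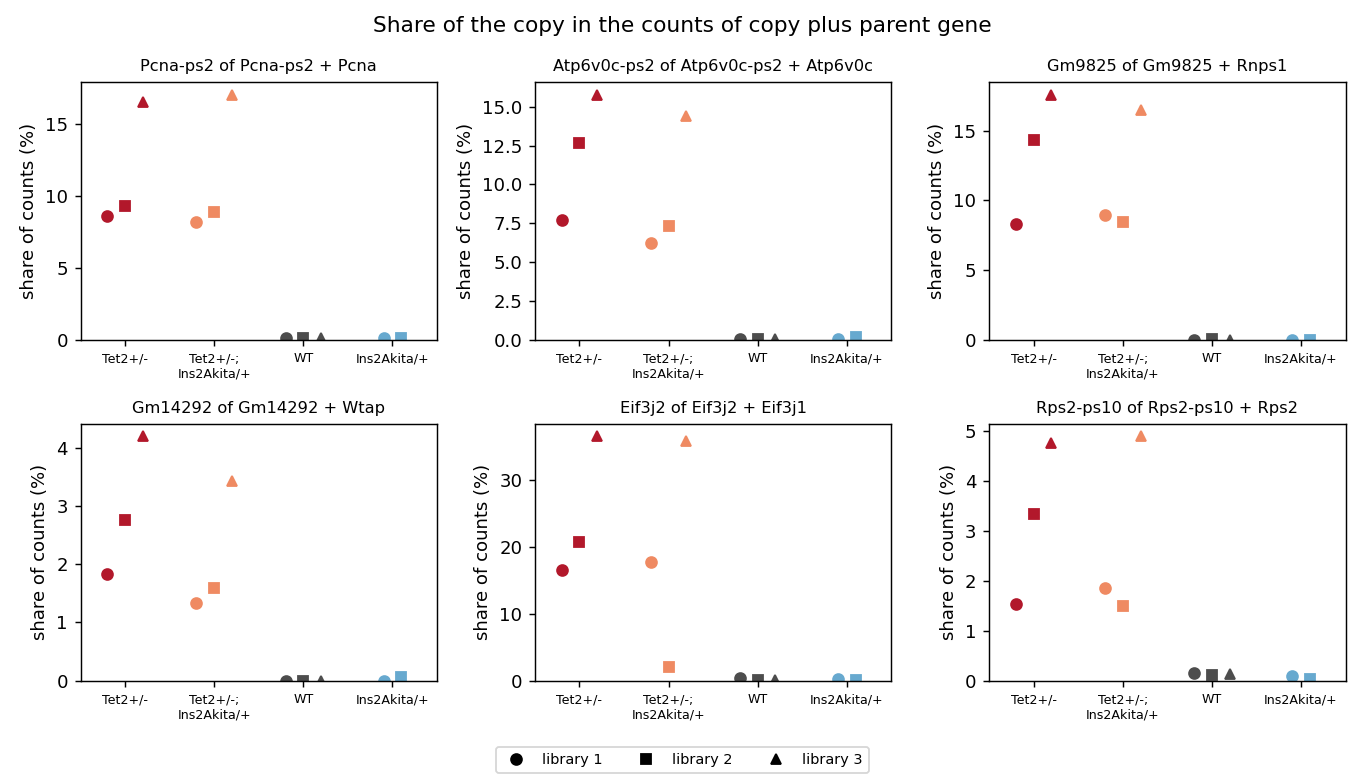
Share of the copy in the counts of copy plus parent, in percent, for 6 pairs in each of 11 libraries, with groups on the x axis and the point shape giving the library number. In both Tet2+/- labelled groups library 3 is the highest of its group, and the 5 libraries of WT and Ins2Akita/+ lie at or near 0.

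The parent genes, in contrast to their copies, overlapped between the sides, except Eif3j1. Pcna was at 282, 316 and 473 CPM in Tet2+/- and 281, 270 and 252 CPM in the double mutant, against 330, 301 and 371 CPM in WT and 302 and 314 CPM in Ins2Akita/+. Its log2 difference for the Tet2+/- label averaged over both backgrounds was -0.05 (SE 0.16, edgeR adjusted p = 0.993). Atp6v0c was at 326, 340 and 157 CPM in Tet2+/- and 413, 474 and 246 CPM in the double mutant, against 375, 395 and 174 CPM in WT and 389 and 354 CPM in Ins2Akita/+, with a difference of -0.09 (SE 0.30, edgeR adjusted p = 0.995).

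Eif3j1 (ENSMUSG00000027236.8) was at 49.2, 47.1 and 45.5 CPM in Tet2+/- and 42.8, 56.2 and 28.5 CPM in the double mutant, against 64.4, 66.7 and 74.0 CPM in WT and 61.9 and 68.2 CPM in Ins2Akita/+. All 6 labelled libraries were below the other 5, yet the difference of -0.57 (SE 0.17) did not pass the test across all genes (edgeR adjusted p = 0.60). With the counts of Eif3j2 added to those of Eif3j1, the levels were 59.0, 59.3 and 71.7 CPM in Tet2+/- and 52.1, 57.4 and 44.4 CPM in the double mutant, against 64.6, 66.7 and 74.2 CPM in WT and 62.0 and 68.2 CPM in Ins2Akita/+. The 2 sides then overlapped through Tet2+/- library 3, and the difference was -0.23 (edgeR adjusted p = 0.985).

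Of the parents outside the list, Rps2 was at 658, 687 and 930 CPM in Tet2+/- and 661, 587 and 686 CPM in the double mutant, against 958, 839 and 1487 CPM in WT and 809 and 890 CPM in Ins2Akita/+, a difference of -0.46 (SE 0.19, edgeR adjusted p = 0.867). The 2 sides overlapped only through Tet2+/- library 3. With the counts of Rps2-ps10 added the difference was -0.42 (edgeR adjusted p = 0.934). Rnps1 and Wtap differed by -0.05 (SE 0.16) and 0.02 (SE 0.20), with edgeR adjusted p-values of 0.993 and 0.997. None of the 6 parents was called for the Tet2+/- label, averaged or in either background, under any of the settings run. Taken alone, the double mutant libraries lay below all 5 unlabelled libraries for Pcna (at most 281 against at least 301 CPM), Rnps1 (at most 127 against at least 134 CPM), Rps2 (at most 686 against at least 809 CPM) and Eif3j1, and the Tet2+/- libraries closed the gap for the first 3. How many of all genes tested lie below in this way was not counted, so nothing is read from these parents.

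**Figure D4:**
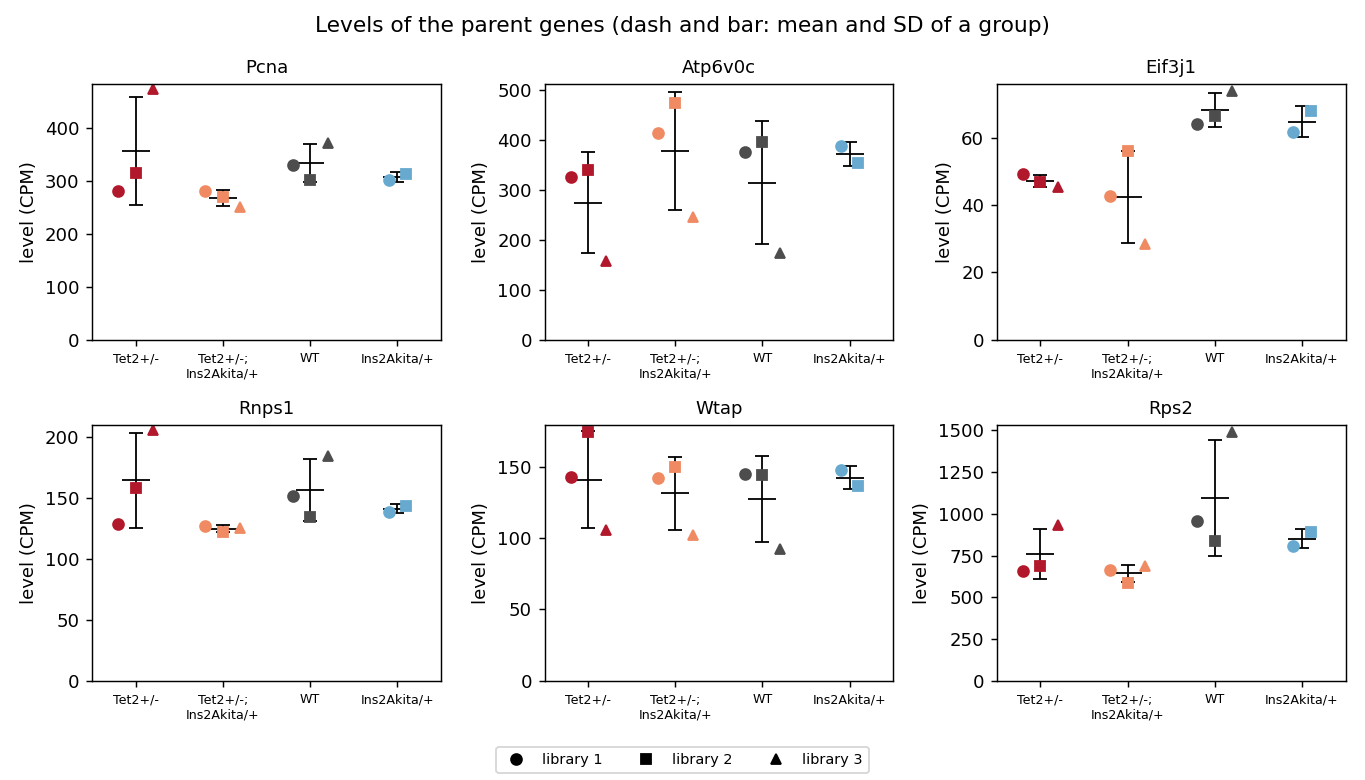
Levels of the 6 parent genes in CPM in each library, by group, with points for libraries, a dash for the group mean and bars for 1 SD (n = 3, 3, 3 and 2 from left to right). The pooled labelled and unlabelled sides overlap for every gene except Eif3j1, whose 6 labelled libraries lie between 28.5 and 56.2 CPM and whose other 5 lie between 61.9 and 74.0 CPM.

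Tet2, the gene named by the label, did not follow the label as the markers did. Its level was 19.0, 18.5 and 19.3 CPM in Tet2+/- and 66.5, 108 and 34.2 CPM in the libraries labelled as double mutant, against 91.2, 128 and 45.1 CPM in WT and 131 and 107 CPM in Ins2Akita/+. The Tet2+/- libraries lay below all others, whereas each double mutant library was above all of Tet2+/- and libraries 1 and 2 fell within the range of WT. The averaged difference was -1.50 (SE 0.32, edgeR adjusted p = 0.358), and the double mutant differed from Tet2+/- by 1.88 (SE 0.45, adjusted p = 0.14), or by 1.70 with the library number as a block (adjusted p = 0.0286). Where in Tet2 the allele is disrupted is not given in the labels, so this total level is an incomplete check of the label.

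Between the 2 labelled groups no member differed past the threshold. The rule did not compare these groups, but it asked that each marker be present in both. A marker lost in either group could not be chosen, so the lack of calls is not independent of the choice. In the double mutant against Tet2+/-, 41 of 15630 genes were called (0.262%), and with the library number as a block 703 were called (4.5%), with no member among either. Pcna-ps2 averaged 34.5 ± 15.1 CPM in the double mutant and 50.9 ± 37.4 CPM in Tet2+/- (SD, n = 3 each), a log2 difference of -0.56 (SE 0.47, edgeR adjusted p = 0.67). Atp6v0c-ps2 averaged 35.5 ± 7.20 CPM in the double mutant and 35.3 ± 12.1 CPM in Tet2+/-, a difference of 0.01 (SE 0.37, adjusted p = 0.995).

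Gbp2b was at 3.04 ± 2.29 CPM in the double mutant and 7.18 ± 4.73 CPM in Tet2+/- (SD, n = 3 each), or -1.24 on the log2 scale (SE 0.94, edgeR adjusted p = 0.646). Without the libraries numbered 3 it was -2.09, also not called. Eif3j2 differed by -0.88 (SE 0.77, edgeR adjusted p = 0.68). With the library number as a block the difference was -1.30 for Eif3j2 and -1.27 for Gbp2b. Without the block, Gm9825, Gm14292 and Rps2-ps10 differed by -0.76, -0.62 and -0.50, with SEs of 0.54, 0.50 and 0.63. These misses do not show that the groups are alike. Each marker was tested in 21 or 22 of the 23 settings run and was called in none of them, and the smallest adjusted p of a marker was 0.194, for Eif3j2 with the library number as a block.

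**Figure D5:**
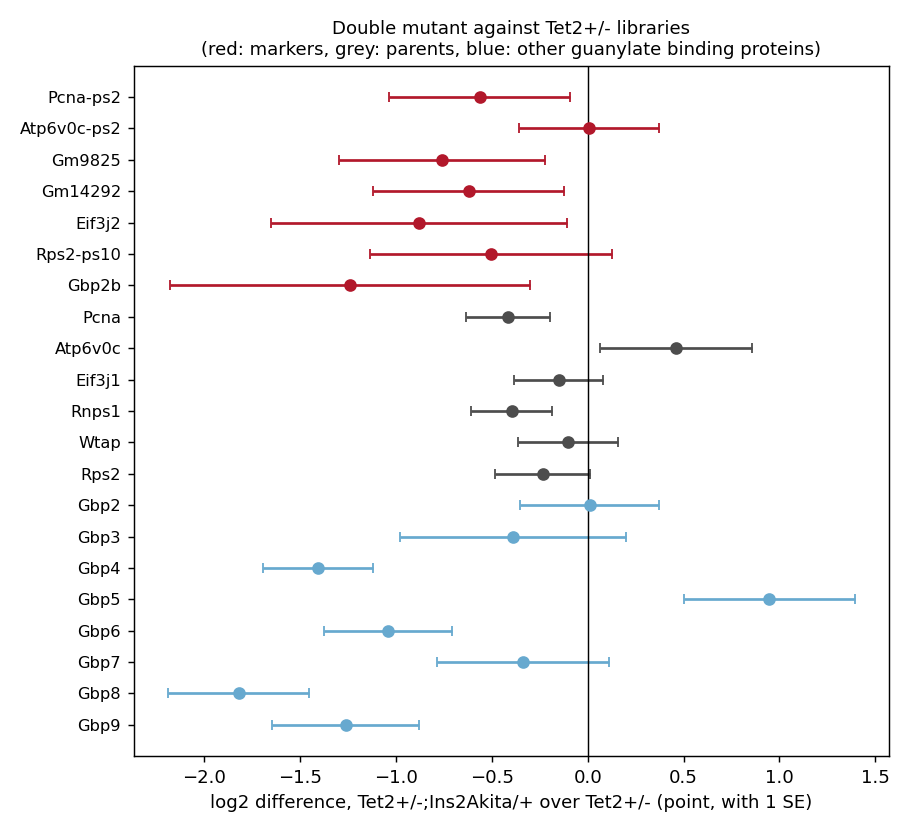
Log2 difference of the double mutant over Tet2+/- with 1 SE for the 7 markers (red), 6 parents (grey) and 8 other guanylate binding proteins (blue), from edgeR. Most markers lie below 0 with wide bars, Atp6v0c-ps2 lies at 0.01, and Gbp4 and Gbp8 lie farthest below 0 relative to their SE.

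Gbp2b sits in a cluster of its family, and its neighbours were read in all libraries. Gbp2, 1423 bases away, had 281, 212 and 122 counts in Tet2+/- and 189, 182 and 213 counts in the double mutant, against 151, 225 and 108 counts in WT and 153 and 153 counts in Ins2Akita/+. Gbp3, 21638 bases away on the other side, had 1041, 1118 and 236 counts in Tet2+/- and 834, 654 and 355 counts in the double mutant, against 715, 743 and 201 counts in WT and 639 and 700 counts in Ins2Akita/+. For both, the sides overlapped and the libraries numbered 3 of Tet2+/- and WT were lowest in their group.

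Of the 8 other guanylate binding proteins tested, none was called for the Tet2+/- label averaged over both backgrounds, 3 were above and 5 below 0, and their median log2 difference was -0.27, beside 0.02 over all genes. In the double mutant against Tet2+/- none was called either, 6 of 8 were below 0 and their median was -0.72, beside -0.08 over all genes. With the library number as a block, the fit that called 4.5% of all genes, 3 of the 8 were called, all lower in the double mutant: Gbp8, at 2.74 ± 0.976 CPM in the double mutant and 9.72 ± 3.61 CPM in Tet2+/- (block difference -1.82, adjusted p = 0.0223), Gbp4 (block difference -1.44, adjusted p = 0.0155) and Gbp9 (block difference -1.26, adjusted p = 0.03). Their differences without the block were -1.82, -1.41 and -1.26, with adjusted p-values of 0.0925, 0.0941 and 0.243. B lineage genes moved with them, summing to 47.9 to 67.8 CPM in the double mutant and 166 to 297 CPM in Tet2+/-, and their part in these differences was not tested.

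Of 24 interferon response genes, none was called for the averaged Tet2+/- label, with 12 above and 12 below 0 and a median of 0.01. In the double mutant against Tet2+/- none was called without the block and 5 of 24 with it, beside 4.5% of all genes: Cxcl10 and Rsad2 were higher (block differences 1.52 and 1.12) and Irf8, Irf9 and Iigp1 lower (-1.37, -0.65 and -2.14), with adjusted p-values of 0.0437, 0.0234, 0.0471, 0.0414 and 0.044 in that order.

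The partners of the parent genes were also read. Of 24 genes that act with PCNA at the replication fork, none was called in any comparison; 15 lay above 0 for the averaged label, with a median of 0.04, and all 24 lay below 0 in the double mutant against Tet2+/-, with a median of -0.43 beside -0.08 over all genes. Without the libraries numbered 3, 10 of the 24 lay above and 14 below 0 (median -0.04), and for the averaged label 4 lay above and 20 below 0 (median -0.08). Mcm2, a subunit of the replicative helicase, was at 228, 204 and 274 CPM in the double mutant and 245, 190 and 655 CPM in Tet2+/-. Of 16 V-ATPase genes none was called, with 13 above 0 for the averaged label (median 0.15) and 14 above 0 in the double mutant against Tet2+/- (median 0.18). Of 13 eIF3 genes other than Eif3j2 none was called, with 11 above 0 for the averaged label (median 0.11), where Eif3j1 at -0.57 was one of the 2 below, and all 13 below 0 in the double mutant against Tet2+/- (median -0.28). Over all genes the medians of these 2 comparisons were 0.02 and -0.08. Without the libraries numbered 3 the medians were 0.21 and 0.15 for V-ATPase genes and 0.04 and -0.22 for eIF3 genes. Those over all genes were then -0.02 and -0.01.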

How the data were processed

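The authors deposited raw gene counts, whole numbers in 1 table, per the file headers and values. The submitters' processing notes name GRCm38, TopHat2 2.1.1, Trimmomatic 0.32 and bcl2fastq. Which program counted the reads, whether strand was used and how reads with several matches were treated is not given in the sources used here. Of 12 labelled samples, 11 matched a column. Double mutant sample 4 was not analysed here, and 1 column matched no label and was not used. Libraries of a group always differed beyond counting noise, with a chi-square per gene of at least 17.2.

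The members and gene lists were chosen with earlier results of these data known. The test was edgeR 4.0.16 under R 4.3.3 (filterByExpr, TMM, 1 fit of 4 groups, glmQLFit with robust=TRUE, glmQLFTest, Benjamini-Hochberg adjusted p under 0.05). Each SE is the log2 difference over the square root of F. The step was tested on simulated data. DESeq2 1.42.0 and limma 3.58.1 were alternatives. CPM used TMM-scaled totals.

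Same-numbered libraries of Tet2+/-, the double mutant and WT deviated together (correlations 0.356 to 0.832), and the number was taken as pairing them. Pairs with Ins2Akita/+, which has no library 3, did not (-0.414 to 0.323). A shift shared by the libraries numbered 3 can raise the first correlations, so they do not show that numbers 1 and 2 pair. The pairing is therefore an assumption, on which the block fits and the paired tests rest. Names and sequences come from GENCODE M21, which named 30875 of 31060 IDs. Parents were found with BLAST 2.17.0 among protein-coding transcripts. Named were the members, Tet2, parents, other copies, neighbours, genes with the largest gaps, and from each list its called members. Genes of the low-count search, the intervals, and Gbp2 and Gbp3 beside Gbp2b were named after their values were seen.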

Additional observations from a re-analysis of the deposited data

How the results depend on the processing

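The number of genes called moved with the setting. In the order averaged label, Tet2+/- against WT, double mutant against Ins2Akita/+, double mutant against Tet2+/-, it was 4, 4, 6 and 41 as reported, 9, 8, 18 and 703 with a replicate block, 139, 45, 189 and 538 with DESeq2, and 37, 22, 436 and 1163 without all libraries numbered 3. With the copies' counts added to their parents (chosen after seeing the data) the first 3 counts were 0. Without the low count filter the averaged label gave 19, the double mutant against Ins2Akita/+ 20 and against Tet2+/- 86. With a mean of at least 5 CPM these last 2 gave 3 and 8. The double mutant against Ins2Akita/+ gave 3 with upper quartile factors and 3 with limma voom. Each pair of groups alone gave 2, 1 and 0. Leaving out 1 library gave 3 to 8, 1 to 7, 0 to 11 and 0 to 66. The 41 became 66 without Tet2+/- library 3 and 0 to 8 without any one other library except WT library 3. The interaction called 0 genes (537 at an unadjusted p under 0.05), 57 with DESeq2, 3 without the filter, 3 with a replicate block, 7 without the libraries numbered 3 and 0 with any 1 library left out. The cause was not tested.

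Genes higher with a gap of at least 2 numbered 5, 3 with a threshold of 3, 9 without the libraries numbered 3 and 5 to 10 without 1 library. None was lower in any run. Within 20 Mb of Tet2 there were 0 to 1. The 1 was the marker Gbp2b, in the run without double mutant library 2, where its 8 counts had left it out. Of 929 values of members, parents, Tet2 and the 8 genes that the block called under other settings, 904 kept their side of the threshold and 25 passed it, of Tet2, Gbp4, Gbp8, Gbp9, Cxcl10, Rsad2, Irf8, Irf9 and Iigp1. Without 1 library the share difference in points ran between -2.92 and 2.46 for Pcna-ps2, -5.27 and -0.839 for Atp6v0c-ps2, -4.68 and -0.0019 for Gm9825, -1.46 and -0.17 for Gm14292, -14.8 and 2.11 for Eif3j2, and -1.53 and 0.318 for Rps2-ps10, each within 1 SD of its value with all libraries.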
